A study of Mus musculus with 12 samples.

Results

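The respiratory chain genes examined here encode the subunits and assembly factors of the 4 electron transport complexes and of ATP synthase. They were taken by symbol from the protein coding genes of 12 RNA-seq libraries of mouse neutrophils, as those starting with mt-, Ndufa, Ndufb, Ndufc, Ndufs, Ndufv, Uqcr, Cox4 to Cox8 or Atp5, and Sdha to Sdhd. Of the 55335 genes listed in the files, 107 matched these names, 94 in the nucleus and 13 in mitochondrial DNA. A minimum of 10 counts in at least 4 of the 12 libraries left 93 genes, 86 nuclear and 7 mitochondrially encoded. The 14 genes below that minimum were Ndufs3, Atp5a1, Uqcrc1, Cox6a2, Ndufa4l2, Cox8c, Cox7b2 and a second identifier of Atp5o in the nucleus, with mt-Co2, mt-Co3, mt-Atp6, mt-Atp8, mt-Nd3 and mt-Nd4l. At the edge of the rule, Cox8b reached 10 counts in 4 libraries and Cox6a2 in 3. Of the 93 genes, 86 had 10 or more counts in all 12 libraries, while Cox4i2 and Ndufaf6 passed only through the tumor libraries.

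Tumor-associated neutrophils (TANs) were sorted as CD45+ CD11b+ Ly6G+ F4/80- cells from mammary tumors of 4 PyMT mice, which carry the polyoma middle T oncogene as a transgene, and of 4 PyMT-Cxcr2-/- mice, which carry the same transgene and lack the chemokine receptor Cxcr2. Bone marrow (BM) neutrophils from 4 WT mice without transgene were the third group. All mice were FVB, 10 weeks old and housed in a specific and opportunistic pathogen free facility, so that the TAN groups differ from the BM group in both tissue and transgene. WT neutrophils of blood or BM neutrophils of tumor-bearing mice were not analysed here.

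Complex I (Nduf genes) takes electrons from NADH, complex II (Sdh genes) from succinate, and both pass them through coenzyme Q to complex III (Uqcr genes), cytochrome c and complex IV (Cox genes), which reduces oxygen. Complexes I, III and IV pump protons across the inner mitochondrial membrane, and ATP synthase (Atp5 genes, complex V) uses this gradient. Mitochondrial DNA encodes core subunits of complexes I, III, IV and V, transcribed by a polymerase of its own, while the nucleus encodes all of complex II and the remaining subunits. Neutrophils hold few mitochondria and draw most of their ATP from glycolysis.

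The mt- genes need a caveat on sequence before their values are read. Mouse chromosome 1 carries a long copy of mitochondrial DNA, whose pieces are annotated as separate genes, and reads that match both places equally are not given to either by a count of unique alignments. The first 80 bases of mt-Co2 (chrM:7013-7092, plus strand, mm10) and the corresponding stretch of the copy Gm28661 (chr1:24615486-24615565, minus strand) are shown because they are identical. A mismatch would be in capitals, and there is none.
mt-Co2: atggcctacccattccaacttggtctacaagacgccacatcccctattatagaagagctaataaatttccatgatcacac
Gm28661: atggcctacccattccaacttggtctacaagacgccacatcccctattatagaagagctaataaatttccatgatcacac
Over all 681 aligned bases, mt-Co2 and Gm28661 had 0 mismatches, and the copies of mt-Atp6, mt-Co3 and mt-Nd4l were identical as well. The copy of mt-Nd3 had 1 mismatch in 345 bases. For these 5 genes, 97.6% to 99.9% of all windows of 100 bases also occurred in another annotated transcript, and none of them exceeded 12 counts in any library. Among the 7 mt- genes that were kept, mt-Nd4 shared 60.8% of its windows, mt-Co1 30.8% and mt-Nd2 3.19%, while mt-Cytb, mt-Nd1, mt-Nd5 and mt-Nd6 shared none. Reads with more than 1 alignment were 6.07% to 8.72% of all reads in the TAN libraries and 9.22% to 11.4% in the BM libraries. The levels of mt-Co1 and mt-Nd4 thus count only the reads that could be placed, and the 6 mt- genes left out are not described further. mt-Atp8, at 0 in all 12 libraries, shared no window with another annotated transcript. Uqcrc1, a core subunit of complex III with no shared window, was listed at 0 in all 12 libraries, Ndufs3 reached at most 7 counts and Atp5a1 at most 6. The cause was not tested, and no value is given for these genes.

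The libraries held 25032704 to 51351569 counts on genes, so that counting error was small beside the spread between mice for all but the lowest genes. Cxcr2 was at 8.97 to 10.1 CPM (counts scaled to a common library size with TMM factors over the 12 libraries) in PyMT-Cxcr2-/- TANs and at 1029.5 to 1536 in PyMT TANs, as the genotypes say. The 10 neutrophil markers summed to 83426 to 112011 CPM in BM neutrophils, 10783 to 17486 CPM in the PyMT group and 19395 to 32129.7 CPM in the PyMT-Cxcr2-/- group. Despite the sorting gate, 9 of 9 mammary epithelial markers had counts in the TANs of both genotypes, with sums of 47.6 to 445 and 84.1 to 313 CPM, against 0.0599 to 0.514 in BM neutrophils, where Krt8, Krt14, Krt5, Csn2 and Csn3 were at 0 in all 4 libraries. The 8 macrophage markers summed to 255 to 357 CPM in BM neutrophils, 2137 to 4983 CPM in the PyMT group and 2323 to 4776 CPM in the PyMT-Cxcr2-/- group. In bulk libraries, fewer cells of a type and less RNA per cell cannot be told apart. Reads in no annotated feature were 39.9% to 52.5% of all reads in TANs and 32.0% to 42.4% in BM neutrophils. Below, fold changes are log2 values over BM neutrophils unless stated otherwise, the first for the PyMT group and the second for the PyMT-Cxcr2-/- group, with p from edgeR adjusted over all genes tested. A gene is called when its adjusted p is below 0.05 and it differs by 1.5-fold or more. Levels without a group name are in the order BM neutrophils, PyMT group and PyMT-Cxcr2-/- group, 4 mice each.

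Of the 7 mt- genes, 5 were called higher than in BM neutrophils in the TANs of both genotypes, where 30.1% (PyMT) and 34.4% (PyMT-Cxcr2-/-) of all genes were, and 2 were not called. mt-Co1 (chrM:5328-6872), the catalytic subunit of complex IV, was the most abundant respiratory chain gene per kilobase of exons, at a mean of 196 CPM per kb in BM neutrophils, 657 in the PyMT group and 587 in the PyMT-Cxcr2-/- group. In the 4 libraries of each group its level was 337, 296, 250.2 and 327 CPM in BM neutrophils, 389, 605, 1276 and 1790.2 CPM in the TANs of PyMT mice and 1094, 1131, 712 and 692 CPM in those of PyMT-Cxcr2-/- mice. The BM libraries lay close together and below all 8 TAN libraries, whereas the PyMT TANs were spread widely and the lowest of them came near the highest BM library. The log2 fold change over BM neutrophils was 1.84 (SE 0.40, adjusted p = 0.0021) in PyMT TANs and 1.71 (SE 0.18, adjusted p = 2.3e-06) in PyMT-Cxcr2-/- TANs.

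**Figure D1:**
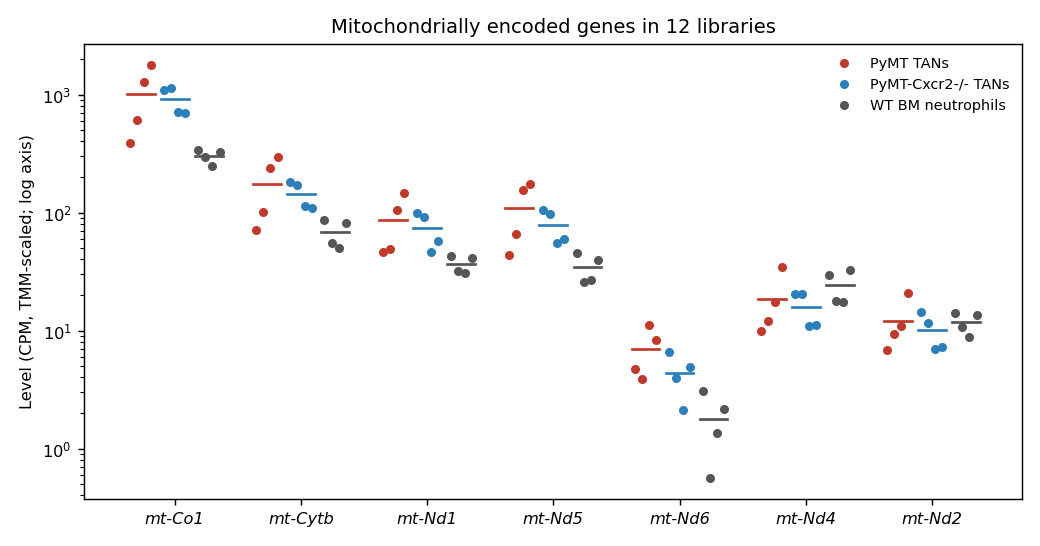
Level of each of the 7 mt- genes in CPM (log axis) in every library, with PyMT TANs in red, PyMT-Cxcr2-/- TANs in blue and WT BM neutrophils in grey, 4 mice each, and lines at the group means. The TAN libraries lie above the BM libraries for mt-Co1, while the groups overlap for mt-Nd4 and mt-Nd2.

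mt-Cytb, the cytochrome b of complex III, was at 87.1, 54.9, 50.2 and 81.1 CPM in BM neutrophils, 70.9, 101, 238 and 293 CPM in the TANs of PyMT mice and 182, 172, 113 and 109.8 CPM in those of PyMT-Cxcr2-/- mice. The lowest PyMT library fell within the BM range, and the fold changes were 1.46 (SE 0.41, adjusted p = 0.0096) and 1.20 (SE 0.22, adjusted p = 3.6e-04). The complex I subunit mt-Nd5 was at 45, 25.7, 27 and 39.4 CPM in BM neutrophils, 43.6, 66.3, 154 and 176 CPM in the TANs of PyMT mice and 105, 96.8, 55 and 59.2 CPM in those of PyMT-Cxcr2-/- mice. It rose by 1.78 (SE 0.41, adjusted p = 0.003) and 1.33 (SE 0.25, adjusted p = 5.6e-04) on the log2 scale, with 1 PyMT library again inside the BM range. mt-Nd1, of the same complex, rose by 1.33 (SE 0.34, adjusted p = 0.0061) and 1.13 (SE 0.23, adjusted p = 9.6e-04). mt-Nd6, the only one of these genes on the other strand of mitochondrial DNA, was low, at 0.56 to 3.09, 3.87 to 11.1 and 2.14 to 6.57 CPM, and rose by 2.05 (SE 0.52, adjusted p = 0.0055) and 1.41 (SE 0.45, adjusted p = 0.013). It overlaps mt-Nd5 on the opposite strand, and the strand setting of the counting is not given in the sources used here. By contrast mt-Nd2 was at 11.7 ± 2.4, 12.1 ± 6.21 and 10.1 ± 3.57 CPM (mean ± SD, n = 4 each) and mt-Nd4 at 24.3 ± 7.78, 18.5 ± 11.2 and 15.8 ± 5.41 CPM, with adjusted p of 0.76 and 0.52 for PyMT TANs and 0.73 and 0.11 for PyMT-Cxcr2-/- TANs. Without PyMT mouse 4, mt-Nd4 was called lower in the PyMT group (-0.83, adjusted p = 0.034). The groups did not overlap for 3 of 7 mt- genes with PyMT TANs (all genes 58.2%) and for 4 of 7 with PyMT-Cxcr2-/- TANs (all genes 65.8%). These comparisons share the 4 BM libraries.

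Summed over the 13 mt- genes, the share of all counts was 0.0421, 0.0363, 0.0343 and 0.0452% in BM neutrophils, 0.0624, 0.103, 0.218 and 0.309% in the TANs of PyMT mice and 0.162, 0.167, 0.0932 and 0.088% in those of PyMT-Cxcr2-/- mice. Every TAN library was above every BM library. The 95% Wilson interval of each share reached at most 0.00183 percentage points to either side, and it covers counting error only. The ratio of mt- counts to counts on the 86 nuclear genes, which does not depend on how libraries are scaled, was 0.215 to 0.25 in BM neutrophils, 0.414 to 1.69 in the TANs of PyMT mice and 0.725 to 1.16 in those of PyMT-Cxcr2-/- mice. The mitochondrial ribosomal RNAs were not called higher, and mt-Rnr1 was called lower in PyMT-Cxcr2-/- TANs only. mt-Rnr2 had fold changes of -0.06 and -0.26. mt-Rnr1 was at 1919.8 to 3066, 959.8 to 2088 and 1083 to 1635 CPM, with a log2 fold change of -0.64 (SE 0.27, adjusted p = 0.060) in PyMT TANs and -0.78 (SE 0.17, adjusted p = 0.0011) in PyMT-Cxcr2-/- TANs. Ribosomal RNA was depleted during library preparation, so these 2 transcripts measure what the depletion left.

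Within the TANs, mt-Co1 was high in the same libraries as the mammary epithelial markers. These markers summed to 47.6, 60.6, 321 and 445 CPM in mice 1 to 4 of the PyMT group, in the same order as mt-Co1, and to 245, 313, 84.1 and 119.5 CPM in the PyMT-Cxcr2-/- group, where mice 1 and 2 were above mice 3 and 4 for both measures. Over the 8 TAN libraries, log2 mt-Co1 and log2 marker sum were correlated with Pearson's r = 0.97 (exact permutation p = 9.9e-05, adjusted 0.00079) and Spearman's rho = 0.98 (exact permutation p = 0.0004, adjusted 0.0032), two-sided and adjusted over 8 marker lists. Without the 2 libraries farthest from the median of the marker sum, PyMT mice 1 and 2, r was 0.95 over 6 libraries. For the other 7 lists, macrophage and neutrophil markers included, the adjusted p of r was 0.25 or more. Their r was 0.65 for immature granulocyte, 0.61 for fibroblast and endothelial and 0.59 for macrophage markers, and -0.35 to 0.22 for the rest. With 8 libraries this does not show that these lists are unrelated to mt-Co1. No correlation is given within a genotype, since each has 4 libraries. The relation was looked for after the values were seen, and of the mt- genes it was computed for mt-Co1 alone. mt-Nd6 did not follow the order of the markers. In mice 1 to 4 it was at 4.76, 3.87, 11.1 and 8.24 CPM in the PyMT group. The PyMT-Cxcr2-/- group had 6.57, 3.98, 2.14 and 4.88 CPM. The summed nuclear genes did not show the spread of mt-Co1, at 1381, 1375, 1389 and 1464 CPM in the PyMT group and 1445, 1319, 1237 and 1299 CPM in the PyMT-Cxcr2-/- group.

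**Figure D2:**
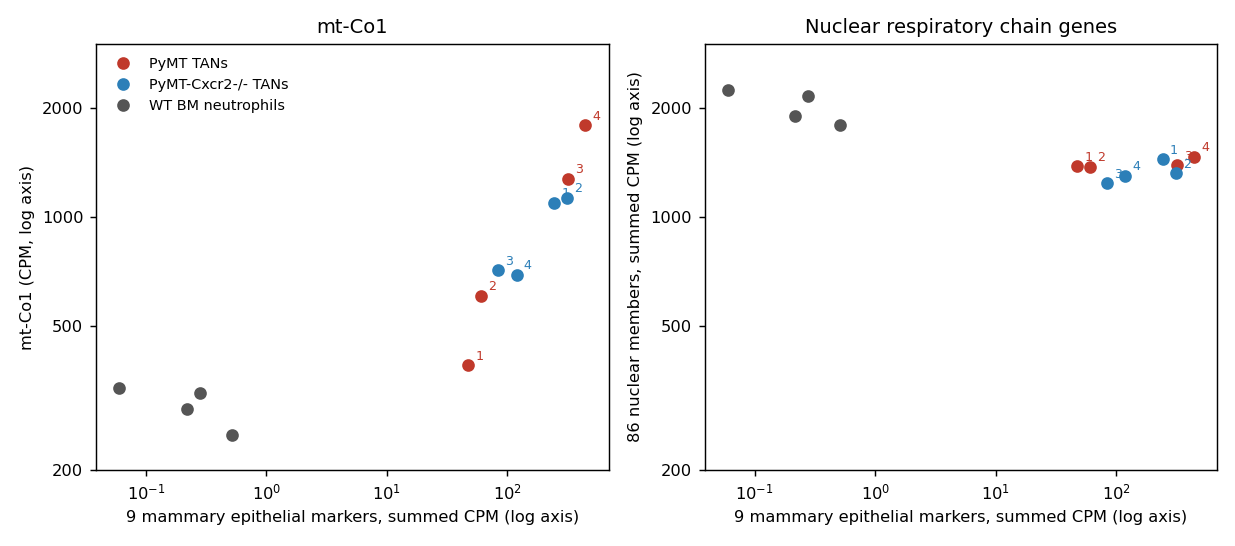
mt-Co1 (left, CPM) and the sum of the 86 nuclear genes (right, CPM) against the summed CPM of 9 mammary epithelial markers in every library, all axes logarithmic, with mouse numbers beside the TAN libraries. mt-Co1 rises along the TAN libraries from 389 to 1790.2 CPM, while the nuclear sum stays between 1237 and 1464 CPM in all 8.

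With only the TAN libraries of lower marker sums (PyMT mice 1 and 2, PyMT-Cxcr2-/- mice 3 and 4) against the 4 BM libraries, an alternative chosen after seeing the data, the log2 fold change of mt-Co1 was 0.75 in PyMT TANs and 1.36 in PyMT-Cxcr2-/- TANs, still called in both. The number of mt- genes called higher went from 5 to 3 and from 5 to 4. mt-Nd1 (0.41) and mt-Cytb (0.36) were no longer called in PyMT TANs, nor mt-Nd6 (1.11) in PyMT-Cxcr2-/- TANs, and mt-Nd4 became called lower in both (-1.12 and -0.98). These 4 TAN libraries are also those with the lowest mt-Co1, so that smaller mt- folds follow from the choice of libraries, and the part of epithelial RNA in the level of the mt- genes was not tested.

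The nuclear genes moved the other way on balance. In PyMT TANs, 7 of the 85 nuclear genes tested were called higher than in BM neutrophils and 30 lower, 8.24% and 35.3%, against 30.1% and 23.2% of all 17153 genes. In PyMT-Cxcr2-/- TANs, 8 were called higher and 33 lower, 9.41% and 38.8%, against 34.4% and 25.1% of all 17732 genes. The median log2 fold change of the nuclear genes was -0.35 and -0.48, beside 0.09 over all genes in both comparisons. The groups did not overlap for 48 and 51 of the 85 genes (all genes 58.2% and 65.8%). The genes called higher include Cox4i2 and Ndufaf6, which passed the count minimum only through the TANs. Markers of other cells went both ways. Macrophage markers (8 of 8) and mammary epithelial markers (6 of 6 tested) were called higher in both TAN groups. Of the fibroblast and endothelial markers, 4 of 5 tested were called higher in the PyMT group and 5 of 6 in the PyMT-Cxcr2-/- group. The 6 immature granulocyte markers were all called lower in both TAN groups and summed to 286 to 319 CPM in BM neutrophils, 80 to 133 CPM in the PyMT group and 108 to 157 CPM in the PyMT-Cxcr2-/- group. The 5 lymphocyte markers summed to 219 to 256, 10.2 to 28.4 and 25.2 to 50.3 CPM, with 1 of 4 tested called lower in the PyMT group and 2 of 5 in the PyMT-Cxcr2-/- group. The median log2 fold change of the lymphocyte markers tested was -1.17 and -0.02. The part of all these cells in the nuclear genes was not tested.

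This balance depends on how the libraries are scaled. The TMM factors, which scale library sizes by trimmed mean log ratios between libraries, were 0.753 to 0.890 in BM neutrophils, 1.09 to 1.25 in the PyMT group and 0.935 to 1.09 in the PyMT-Cxcr2-/- group. With library totals and no such factors, chosen after seeing the data, the median of all genes shifted to 0.53 in PyMT TANs and 0.27 in PyMT-Cxcr2-/- TANs. There, 16 nuclear genes were called higher and 14 lower in PyMT TANs, and 8 higher and 24 lower in PyMT-Cxcr2-/- TANs. Relative to the median of all genes, the median of the nuclear genes was -0.44 and -0.56 with TMM factors and -0.43 and -0.55 with library totals. The 5 mt- genes were called higher under either scaling. As a share of all counts, the 86 nuclear genes took 0.158 to 0.182% in BM neutrophils, 0.151 to 0.183% in the TANs of PyMT mice and 0.121 to 0.154% in those of PyMT-Cxcr2-/- mice. With library totals no nuclear gene described below as called in both TAN groups changed its direction.

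**Figure D3:**
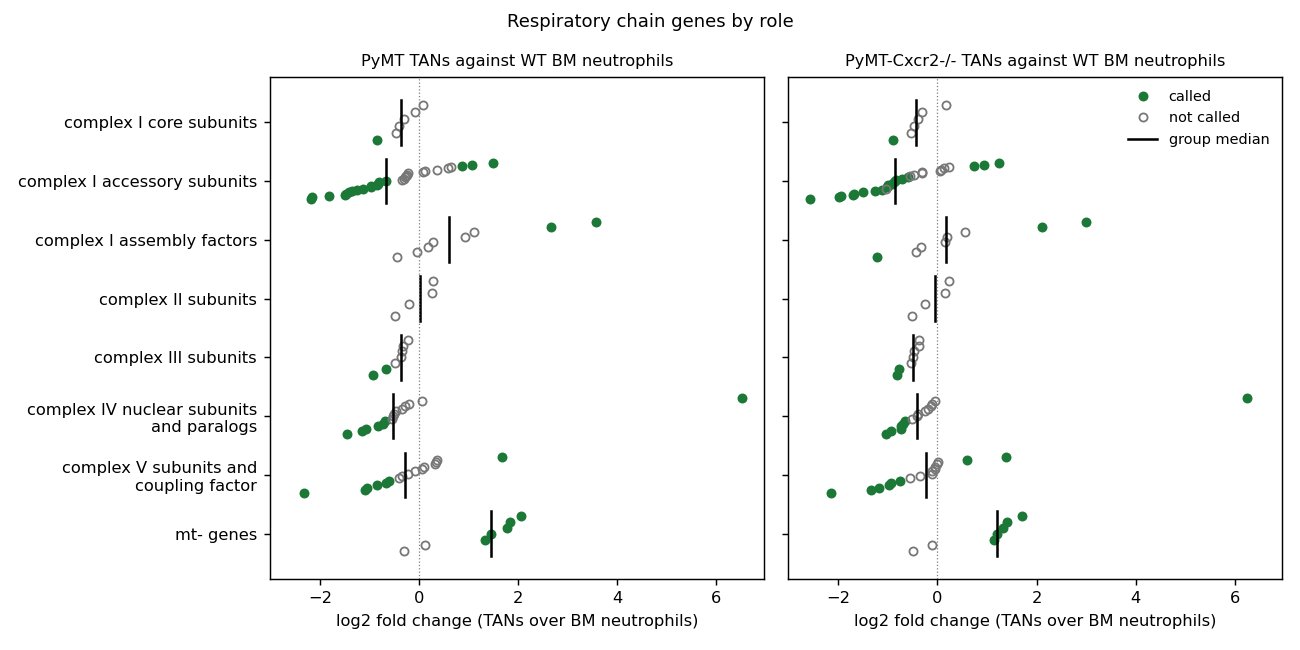
log2 fold change of each of the 92 tested genes in PyMT TANs (left) and PyMT-Cxcr2-/- TANs (right) over WT BM neutrophils, grouped by role, with filled circles for called genes, open circles for the others and a vertical line at each group's median. Accessory subunits of complex I lie mostly below 0, at a median of -0.67 and -0.87, and the mt- genes mostly above it, at 1.46 and 1.20.

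Complex I held the largest group. Of its 29 accessory subunits, which surround the catalytic core, 15 were called lower and 3 higher in PyMT TANs (51.7% and 10.3%, all genes 23.2% and 30.1%). In PyMT-Cxcr2-/- TANs 17 were called lower and 3 higher (58.6% and 10.3%, all genes 25.1% and 34.4%). Ndufb7, an accessory subunit of the membrane arm, was at 49.8, 35, 35.2 and 48.2 CPM in BM neutrophils, 12, 7.99, 9.31 and 6.14 CPM in the TANs of PyMT mice and 10, 8.93, 9.14 and 11.2 CPM in those of PyMT-Cxcr2-/- mice. The TAN libraries lay far below every BM library, with log2 fold changes of -2.17 (SE 0.22, adjusted p = 9.6e-06) and -1.98 (SE 0.15, adjusted p = 8.6e-08). Ndufv3, which sits on the NADH-oxidizing end of the complex, was at 52.3, 39, 38.1 and 44.8 CPM in BM neutrophils, 12.4, 9.72, 14.9 and 9.51 CPM in the TANs of PyMT mice and 11, 11.3, 9.6 and 9.96 CPM in those of PyMT-Cxcr2-/- mice. The groups were again apart, with log2 fold changes of -1.82 (SE 0.19, adjusted p = 1.1e-05) and -1.94 (SE 0.13, adjusted p = 3.7e-08). Ndufs4, a subunit of the arm that takes up electrons and a known site of mutation in Leigh syndrome, had fold changes of -1.49 (SE 0.29, adjusted p = 9.9e-04) and -1.68 (SE 0.16, adjusted p = 9.2e-07), and the small subunit Ndufa1 of -1.26 (SE 0.21, adjusted p = 3.7e-04) and -1.70 (SE 0.18, adjusted p = 2.6e-06). Ndufa13, a subunit of the membrane arm, went from 20.9 to 40.1 CPM in BM neutrophils to 4.25 to 7.72 and 3.66 to 6.04 CPM in the TAN groups (-2.17 and -2.56), but it overlaps Tssk6 on the opposite strand and is uncertain.

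Against this trend, Ndufab1, the mitochondrial acyl carrier protein, was at 2.04, 1.56, 2.23 and 2.46 CPM in BM neutrophils, 3.87, 6.59, 7.45 and 4.01 CPM in the TANs of PyMT mice and 3.51, 4.52, 2.26 and 2.35 CPM in those of PyMT-Cxcr2-/- mice, and was called higher in both (1.49, adjusted p = 0.0028, and 0.73, adjusted p = 0.036). The PyMT-Cxcr2-/- libraries overlapped the BM range. The other accessory subunits called higher in both were Ndufc2 and Ndufb2. Ndufc2, at 4.01, 3.39, 2.91 and 4.44 CPM in BM neutrophils, 4.48, 8.09, 4.35 and 8.42 CPM in the TANs of PyMT mice and 9.29, 8.65, 3.39 and 4.63 CPM in those of PyMT-Cxcr2-/- mice, had log2 fold changes of 0.86 and 0.93. Both TAN groups overlapped the BM range. In the PyMT-Cxcr2-/- group mice 1 and 2, which were also higher for the epithelial markers, were above mice 3 and 4. In the PyMT group mice 2 and 4 were above mice 1 and 3, whereas the epithelial markers were higher in mice 3 and 4. Ndufb2 had log2 fold changes of 1.08 (SE 0.34, adjusted p = 0.019) and 1.25 (SE 0.20, adjusted p = 7.5e-05). The call of Ndufb2 in PyMT TANs rests in part on mouse 4, at 11.8 CPM against 4.62 to 5.46 CPM in the other 3, and without that library the fold change was 0.64 with an adjusted p of 0.085. It was also lost without BM mouse 1 (0.94, adjusted p = 0.066) or BM mouse 2 (0.97, adjusted p = 0.064). Ndufab1 and Ndufb2 overlap other annotated genes. Ndufa2, the nuclear complex I subunit with the highest level per kilobase (30 CPM per kb over the 12 libraries), was at 20.8 ± 3.15, 16.8 ± 2.7 and 13.9 ± 0.916 CPM and was not called.

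Among the nuclear core subunits of complex I described here, Ndufs1, which carries iron-sulfur clusters, was called lower in both TAN groups. It was at 53.5, 46.9, 46.3 and 48.5 CPM in BM neutrophils, 26.1, 26.2, 23.3 and 26.6 CPM in the TANs of PyMT mice and 29.5, 20.9, 20.7 and 25.5 CPM in those of PyMT-Cxcr2-/- mice. All TAN libraries were below all BM libraries, with log2 fold changes of -0.85 (SE 0.12, adjusted p = 9.9e-05) and -0.89 (SE 0.12, adjusted p = 2.1e-05). The core subunits Ndufs7, Ndufs8, Ndufv1 and Ndufv2 were not called and had fold changes from -0.41 to 0.07 in the PyMT group and from -0.53 to 0.18 in the PyMT-Cxcr2-/- group. Of the 8 assembly factors of the Ndufaf family, which build the complex without being part of it, Ndufaf4 and Ndufaf6 were called higher in both TAN groups and Ndufaf1 lower in PyMT-Cxcr2-/- TANs only (-1.21, adjusted p = 4.3e-04). The difference between the TAN groups was itself not called for Ndufaf1 (-0.83, adjusted p = 0.35). Ndufaf4 and Ndufaf6 were low, at 0.12 to 0.447 and 0.0599 to 0.229 CPM in BM neutrophils and at most 3.04 and 1.9 CPM in TANs, so that their folds are imprecise. Ndufaf6, under 10 counts in every BM library, could be kept only if it differed.

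Complex II also belongs to the citric acid cycle. None of its 4 subunits was called in either comparison by edgeR or DESeq2, although 2 had an unadjusted p under 0.05 in each (edgeR), namely Sdha and Sdhd in PyMT TANs and Sdhb and Sdhd in PyMT-Cxcr2-/- TANs. Sdha, the flavoprotein, was at 75.6 ± 4.85 CPM in BM neutrophils, 86.7 ± 3.38 in the PyMT group and 77.2 ± 1.73 in the PyMT-Cxcr2-/- group (mean ± SD, n = 4 each). Sdhb and Sdhc had fold changes of -0.21 and 0.26 in PyMT TANs and -0.25 and 0.23 in PyMT-Cxcr2-/- TANs. Sdhd, a membrane anchor, was lower in all TAN libraries (35.3 to 45.3 and 33.7 to 45.9 CPM) than in BM neutrophils (53.4 to 67 CPM), with fold changes of -0.49 (SE 0.13, adjusted p = 0.0074) and -0.51 (SE 0.11, adjusted p = 0.0012) that miss the fold threshold.

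All 7 complex III genes had negative fold changes in both comparisons, beside 8163 of 17153 and 8399 of 17732 of all genes. Only Uqcr11 (-0.92 and -0.82) and Uqcrq were called lower, where 23.2% and 25.1% of all genes were. The sign of small fold changes depends on the scaling. With library totals the median of the nuclear genes was 0.10 in PyMT TANs and -0.29 in PyMT-Cxcr2-/- TANs. Uqcrq, a small subunit without a redox center, went from 33.1 ± 4.44 CPM in BM neutrophils to 19.7 ± 2.91 and 17.9 ± 1.65 CPM in the TAN groups, with fold changes of -0.67 (SE 0.16, adjusted p = 0.0045) and -0.77 (SE 0.12, adjusted p = 8.8e-05). Uqcrh, the hinge protein and the nuclear gene of this complex with the highest level per kilobase (22.8 CPM per kb), was at 35.3, 34.6, 33.2 and 41.7 CPM in BM neutrophils, 21.6, 26.6, 22.8 and 27 CPM in the TANs of PyMT mice and 24.9, 22.4, 23.4 and 25.1 CPM in those of PyMT-Cxcr2-/- mice. The groups did not overlap, but the fold changes of -0.48 and -0.48 are under the threshold, as were those of the Rieske protein Uqcrfs1 (-0.33 and -0.38) and of the core protein Uqcrc2 (-0.22 and -0.36).

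In complex IV, the subunit 4 paralogs had fold changes of opposite sign, and the difference between the paralogs was not tested. Cox4i1, the form found in most tissues, was at 76.8, 63.6, 64.3 and 76.4 CPM in BM neutrophils, 48.4, 46.6, 44.1 and 48.1 CPM in the TANs of PyMT mice and 52.4, 51.7, 44.6 and 44.9 CPM in those of PyMT-Cxcr2-/- mice. It was lower in every TAN library, with fold changes of -0.50 (SE 0.11, adjusted p = 0.0028) and -0.42 (SE 0.11, adjusted p = 0.0033), short of the fold threshold. Cox4i2 (chr2:152754173-152765037, plus strand), the paralog known for its expression in lung and its link to low oxygen, was at 0, 0.0934, 0.143 and 0.0559 CPM in BM neutrophils, 7.48, 8.51, 1.63 and 8.79 CPM in the TANs of PyMT mice and 6, 4.78, 6.34 and 4.31 CPM in those of PyMT-Cxcr2-/- mice. The BM libraries held 0, 3, 5 and 2 counts and the TAN libraries 49 to 428, for log2 fold changes of 6.51 (SE 0.77, adjusted p = 2.9e-05) and 6.25 (SE 0.45, adjusted p = 6.6e-08), the largest of all nuclear genes. Since the gene passed the count minimum only through the TANs, it could be kept only if it differed. PyMT mouse 3, with 49 counts, was the lowest TAN library and among the highest for the epithelial markers, while mouse 4, the highest for these markers, held the most counts, 428. Mice 1 and 2, the lowest for these markers, held 352 and 323 counts. Without PyMT mice 3 and 4 and PyMT-Cxcr2-/- mice 1 and 2 the fold changes were 6.73 and 6.26. Per kilobase, Cox4i2 reached 8.38 and 6.8 CPM per kb in the TAN groups, beside 30.2 and 31.2 for Cox4i1.

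**Figure D4:**
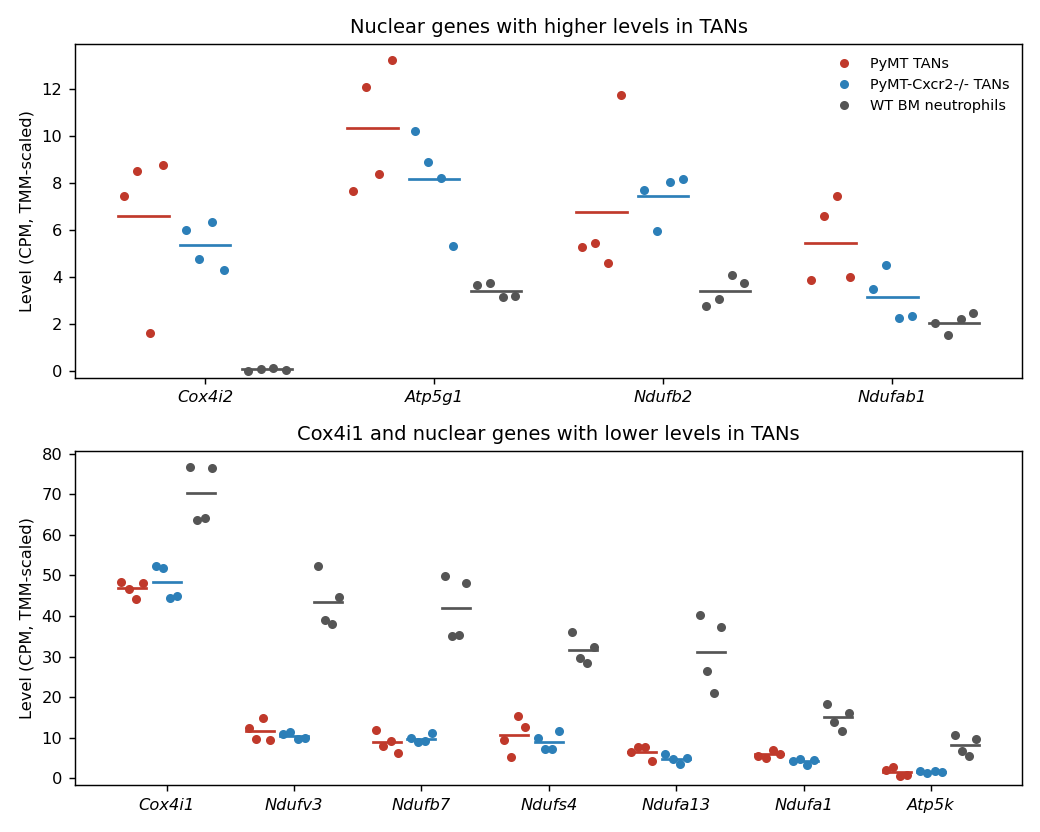
Level in CPM in every library for nuclear genes called higher (top) and for Cox4i1 with genes called lower (bottom) in TANs, with PyMT TANs in red, PyMT-Cxcr2-/- TANs in blue and WT BM neutrophils in grey, 4 mice each, and lines at the group means. Cox4i2 is at 0 to 0.143 CPM in BM neutrophils and at 1.63 to 8.79 CPM in TANs, while Ndufb7 and Ndufv3 separate the groups in the other direction.

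Of the 15 nuclear complex IV genes tested, Cox4i2 was the only one called higher and 6 were called lower in each comparison (6.67% and 40%). Among all genes, 30.1% and 34.4% were called higher and 23.2% and 25.1% lower. Cox8a, the nuclear gene of this complex with the highest level per kilobase (89.9 CPM per kb), was at 91.4, 67, 68.3 and 85 CPM in BM neutrophils, 52.7, 42.9, 34.9 and 47.7 CPM in the TANs of PyMT mice and 45, 40.3, 47.3 and 45 CPM in those of PyMT-Cxcr2-/- mice, with fold changes of -0.73 (SE 0.15, adjusted p = 0.0017) and -0.69 (SE 0.11, adjusted p = 1.2e-04). Every TAN library was below every BM library. Cox5b (-1.07 and -1.03), Cox6c (-1.16 and -0.95), Cox6a1 (-0.83 and -0.66) and Ndufa4 (-0.69 and -0.74), a subunit first assigned to complex I, were called lower in both. Cox6b2, the testis paralog of Cox6b1, was called lower in PyMT TANs only (-1.46, adjusted p = 0.028) and Cox7a2 in PyMT-Cxcr2-/- TANs only (-0.74, adjusted p = 3.0e-04), and for neither was the difference between the TAN groups called (adjusted p = 0.6 and 0.66). Cox5a, Cox6b1, Cox7a2l and Cox7b were not called in either. The muscle paralogs were at low levels, Cox7a1 at 0.956 to 2.49 CPM and Cox8b, which was not tested, at no more than 0.516 CPM.

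Of 16 ATP synthase genes, 1 was called higher and 6 lower in PyMT TANs (6.25% and 37.5%, all genes 30.1% and 23.2%). In PyMT-Cxcr2-/- TANs 2 were called higher and 6 lower (12.5% and 37.5%, all genes 34.4% and 25.1%). Atp5b, the catalytic beta subunit and the nuclear complex V gene with the highest level per kilobase (43.3 CPM per kb), was at 188 ± 17.3, 189 ± 26.5 and 174 ± 15.2 CPM (mean ± SD, n = 4 each) and had fold changes of 0.09 (SE 0.14, adjusted p = 0.59) and 0.01 (SE 0.10, adjusted p = 0.94). Of the 3 paralogs that encode the same mature subunit c of the rotor ring, only Atp5g1 was called higher. It was at 3.65, 3.73, 3.14 and 3.19 CPM in BM neutrophils, 7.67, 12.1, 8.38 and 13.3 CPM in the TANs of PyMT mice and 10.2, 8.91, 8.25 and 5.33 CPM in those of PyMT-Cxcr2-/- mice. All TAN libraries were above all BM libraries, with fold changes of 1.68 (SE 0.25, adjusted p = 1.8e-04) and 1.38 (SE 0.22, adjusted p = 7.7e-05). Atp5g2 (0.35 and -0.01) and Atp5g3 (-0.08 and -0.11) were not called. Atp5g2 shares 34.7% of its windows of 100 bases with other transcripts. Atp5g3 was the most abundant of the 3 per kilobase, at 11.2 against 3.02 and 1.49 CPM per kb for Atp5g2 and Atp5g1. Whether Atp5g1 changed by more than its paralogs was not tested.

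Atp5k, the subunit e at the contact between 2 ATP synthase monomers, was at 10.7, 6.82, 5.46 and 9.61 CPM in BM neutrophils, 2, 2.74, 0.698 and 0.719 CPM in the TANs of PyMT mice and 1.9, 1.42, 1.93 and 1.5 CPM in those of PyMT-Cxcr2-/- mice. It fell furthest in this complex, with fold changes of -2.33 (SE 0.47, adjusted p = 0.0013) and -2.15 (SE 0.25, adjusted p = 4.8e-06). Atp5f1 (-1.06 and -0.94), Atp5j (-1.09 and -1.34), Atp5c1 (-0.85 and -0.76), Atp5e (-0.68 and -0.97) and Atp5j2 (-0.62 and -1.18), which encode parts of the stalks and of the membrane sector, were also called lower in both. Atp5d, the delta subunit of the central stalk, was called higher in PyMT-Cxcr2-/- TANs (0.59, adjusted p = 8.1e-04), close to the fold threshold, and not in PyMT TANs (0.32, adjusted p = 0.086). Without BM mouse 2 or 3 it fell under the fold threshold (0.56 and 0.49).

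Promoter sequence is shown for 3 nuclear genes with large changes in opposite directions, as the 250 bases before the annotated start in RefSeq on GRCm38.p6. A promoter was found for 71 of the 86 nuclear genes. Capitals mark matches, on either strand, to the motifs CCGGAAG (ETS family, which includes Gabpa), GCGCATG (part of the Nrf1 site), AAGATGG (Yy1), CACGTG (E-box) and ACGTG (the core bound by hypoxia-inducible factors, contained in the E-box). Ndufb7 (chr8:83566508-83566757, plus strand) and Atp5k (chr5:108434400-108434649, minus strand) were lower in TANs, and Atp5g1 (chr11:96075632-96075881, minus strand) was higher.
Ndufb7: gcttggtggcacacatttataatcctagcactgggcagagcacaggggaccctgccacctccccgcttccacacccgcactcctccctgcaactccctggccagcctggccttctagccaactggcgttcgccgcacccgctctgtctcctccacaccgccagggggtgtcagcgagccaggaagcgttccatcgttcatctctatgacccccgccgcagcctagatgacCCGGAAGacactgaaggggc
Atp5k: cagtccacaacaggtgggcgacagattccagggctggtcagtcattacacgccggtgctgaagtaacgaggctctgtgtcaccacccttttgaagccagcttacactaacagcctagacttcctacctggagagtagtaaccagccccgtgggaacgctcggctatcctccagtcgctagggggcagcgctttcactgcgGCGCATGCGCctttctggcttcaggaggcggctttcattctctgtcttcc
Atp5g1: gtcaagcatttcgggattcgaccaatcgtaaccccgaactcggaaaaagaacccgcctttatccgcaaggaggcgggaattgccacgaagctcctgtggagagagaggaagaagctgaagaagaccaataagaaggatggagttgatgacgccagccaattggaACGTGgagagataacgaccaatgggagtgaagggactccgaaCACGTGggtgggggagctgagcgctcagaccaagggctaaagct
Ndufb7 has an ETS motif that starts 20 bases before the start, Atp5k overlapping Nrf1 motifs on both strands that start 50 and 47 bases before it, and Atp5g1 an E-box that starts 44 bases and an ACGTG that starts 86 bases before it. Over the 71 nuclear genes, the Nrf1 motif was present in 11 (15.5%) and the ETS motif in 13 (18.3%), against 3.68% and 7.83% of 27025 genes with a promoter. ACGTG was in 19.7% against 18.5% the E-box in 7.04% against 6.86% and the Yy1 motif in 1.41% against 5.18%. The Nrf1 motif was found in 6 of 25 promoters of genes called lower in PyMT TANs and in 1 of 5 of those called higher, and the ETS motif in 5 of 25 and 0 of 5. Of the 40 genes not called, 4 held the Nrf1 motif and 8 the ETS motif. A motif match is a description of these letters and not of binding.

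Between the TANs of the 2 genotypes, none of the 85 nuclear and 7 mt- genes was called by edgeR or by DESeq2, against 1.38% of all 18463 genes higher and 0.596% lower in PyMT-Cxcr2-/- TANs. At an unadjusted p under 0.05 there were 4 nuclear genes and 0 mt- genes. The groups did not overlap for 6 nuclear genes (all genes 11.9%), namely Atp5d, Atp5e, Atp5j2, Ndufa1, Ndufaf1 and Sdha. The median log2 fold change of PyMT-Cxcr2-/- over PyMT TANs was -0.15 for the nuclear genes and -0.30 for the mt- genes, beside -0.07 for all genes. The lowest adjusted p was that of Atp5j2, the subunit f of ATP synthase, at 16, 16.3, 17.4 and 13.6 CPM in the PyMT group and 11.8, 8.47, 9.74 and 11.7 CPM in the PyMT-Cxcr2-/- group. The fold change was -0.64 (95% interval -1.05 to -0.23) with an adjusted p of 0.11, so that the genotypes were not told apart after correction. Cox4i2 (-0.33, 95% interval -1.26 to 0.59) and Cox4i1 (0.01, 95% interval -0.26 to 0.29) were not called. With library totals and no TMM factors Atp5j2 was the 1 gene called, lower in PyMT-Cxcr2-/- TANs.

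**Figure D5:**
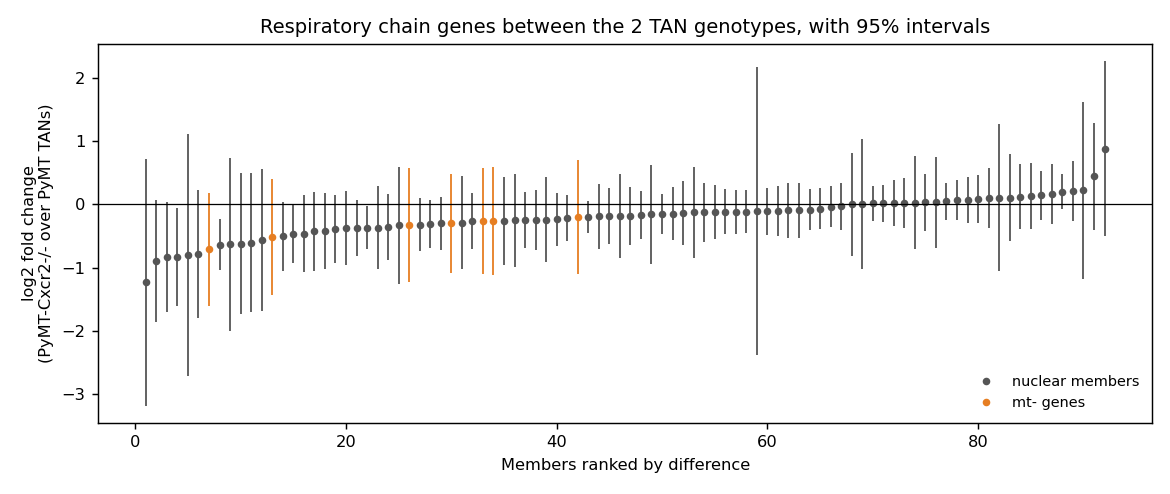
log2 fold change of PyMT-Cxcr2-/- over PyMT TANs for the 92 tested respiratory chain genes, ranked along the horizontal axis, with 95% intervals as vertical lines, nuclear genes in grey and mt- genes in orange. Most intervals include 0, those of all 7 mt- genes among them.

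A missed threshold does not show that the genotypes are alike. For 29 of the 85 nuclear genes the 95% interval of the difference lay within a fold change of 1.5 in either direction, and for none of the 7 mt- genes, whose intervals were wide. That of mt-Co1 was -0.20 (95% interval -1.11 to 0.70), and that of mt-Nd6 -0.71 (95% interval -1.61 to 0.18). Within each genotype the highest mt-Co1 level was 1790.2 and 1131 CPM and the lowest 389 and 692 CPM, a wider range than the distance between the group means. Without PyMT mouse 4 the fold change of mt-Co1 changed sign, to 0.22, and it was not called.

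Other genes that serve the chain were examined as lists, with the same 30.1% higher and 23.2% lower among all genes in PyMT TANs and 34.4% and 25.1% in PyMT-Cxcr2-/- TANs. Of the complex I assembly factors outside the Ndufaf family, 4 higher and 0 lower of 9 were called in PyMT TANs and 5 higher and 1 lower of 9 in PyMT-Cxcr2-/- TANs. Ecsit, from 0.902 ± 0.153 CPM in BM neutrophils to 3.66 ± 0.799 and 2.52 ± 0.539 CPM, and Nubpl rose most (2.10 and 2.55 in PyMT TANs), and Tmem126b fell in PyMT-Cxcr2-/- TANs (-0.98). Complex IV assembly factors gave 4 higher and 6 lower of 19 and 3 higher and 8 lower of 19. Pet100 fell from 30 ± 4.38 CPM to 6.16 ± 1.5 and 8.15 ± 0.475 CPM (-2.20 and -1.76), whereas Cox18, which inserts a subunit into the inner membrane, rose (1.90 and 1.4), as did Cox10, of the heme a pathway (1.84 and 1.10). Complex II assembly factors gave 0 higher and 1 lower of 3 and 2 higher and 1 lower of 4, with Sdhaf2 falling (-0.64 and -0.58) and Sdhaf1 and Sdhaf3 rising in PyMT-Cxcr2-/- TANs (1.67 and 1.60). Further complex III genes gave 1 higher and 2 lower of 6 and 1 higher and 2 lower of 6. Bcs1l, the chaperone that inserts the Rieske protein, fell (-2.27 and -1.84) with the assembly factor Uqcc3 (-1.46 and -1.25), and Uqcc1 rose (1.43 and 1.37). Complex V assembly and inhibitor genes gave 1 higher and 0 lower of 4 and 0 higher and 1 lower of 4, the first being Atpaf2 (0.94) and the second the ATP synthase inhibitor Atpif1 (-0.75).

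Cytochrome c and the coenzyme Q genes gave 6 higher and 2 lower of 14 in PyMT TANs and 6 higher and 2 lower of 14 in PyMT-Cxcr2-/- TANs. Coq10b, a coenzyme Q binding protein, was at 42.8 ± 3.54 CPM in BM neutrophils and 235 ± 35.3 and 280.2 ± 27.9 CPM in TANs, with fold changes of 2.54 (SE 0.14, adjusted p = 1.7e-07) and 2.83 (SE 0.11, adjusted p = 4.3e-10). Coq8a rose as well (3.19 and 3.22), while Coq4 fell (-1.30 and -0.80), and Cycs, cytochrome c itself, was called lower in PyMT-Cxcr2-/- TANs (-0.96). Genes that replicate and transcribe mitochondrial DNA gave 4 higher and 2 lower of 16 and 3 higher and 6 lower of 15. Polrmt, the mitochondrial RNA polymerase, rose from 1.25 ± 0.353 CPM to 8.54 ± 2.93 and 5.24 ± 1.51 CPM (2.85 and 2.18), and Mterf4, a regulator of mitochondrial ribosome assembly, fell (-2.10 and -1.58) with Mterf1b (-2.15 and -1.50). Genes that process mitochondrial RNA gave 9 higher and 2 lower of 15 and 7 higher and 2 lower of 15, with Fastkd1 (3.40 and 3.04) and Fastkd2 (4.89 and 4.14) rising most and Tbrg4 (-1.33 and -1.24) and Hsd17b10, a subunit of the mitochondrial RNase P (-1.13 and -0.85), falling. Between the 2 TAN genotypes no gene of these lists was called by edgeR, with 0 to 4 genes a list at an unadjusted p under 0.05 and a lowest adjusted p of 0.13. The TANs of both genotypes also carried the epithelial and macrophage markers given above, whose part in these lists was not tested.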

How the data were processed

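RNA of sorted neutrophils was depleted of ribosomal RNA and made into directional libraries, sequenced as paired reads. According to the methods and the submitters' processing notes, the authors trimmed the reads and placed them on the mm10 genome by STAR, then obtained raw counts for each gene from HTSeq, which they deposited as whole numbers, 1 table per library. The annotation release and the strand setting of the counting are not given in the sources used here.

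Gene identifiers were named with GENCODE M21 for mm10, which matched 55154 of 55335. Rows that name no gene stayed out of library sizes. Each pair of groups was fitted on its own with edgeR 4.0.16 in R 4.3.3 (limma 3.58.1), using filterByExpr, TMM factors and the robust quasi-likelihood test, with Benjamini-Hochberg adjustment over all genes tested. Calls needed an adjusted p under 0.05 and 1.5-fold or more. SE was derived from the F statistic and the fold change. Levels are CPM with TMM factors over the 12 libraries, divided by exon length where given per kilobase. The correlation used log2(CPM + 0.5). The fit was tested on simulated data with known changes. The libraries held 25032704 to 51351569 counts, and libraries of a group differed by far more than counting noise.

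Respiratory chain genes were taken by the symbol rule and a minimum of 10 counts in 4 libraries. Genes named were the mt- genes, complex II, the core subunits, paralog families, the 5 largest called rises and falls without overlap in each comparison, the highest nuclear gene of each complex per kilobase, and up to 2 rises and 2 falls of each pathway list. The members and lists were chosen with earlier results of these data known. Genes called in only 1 comparison and the remaining called genes of a complex were named after their values were seen. Alternatives were DESeq2 1.42.0, RLE size factors, other filters, 12 libraries in one fit, adjustment for GC content and length (mgcv 1.9.3), the replicate number as a block, and leaving out each library. Library totals without TMM factors and the libraries with lower epithelial markers were added after seeing the data. A gene that the naming rule covers is not reported here.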

Additional observations from a re-analysis of the deposited data

Results flagged for a closer look

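Of 180 groups of 4 libraries examined, over 60 measures (respiratory chain genes named by rule, the share of mt- counts and marker sums), 8 held a library whose distance from its nearest neighbor was more than Dixon's critical share of the group's range. Chance gives about 1 in 20 groups. In PyMT TANs, mouse 4 was highest for Ndufb2 at 11.8 CPM (others 4.62 to 5.46), for Atp5c1 at 35.1 CPM (others 23.3 to 24.3) and for Cox7b at 19.1 CPM (others 14.3 to 15.1). Mouse 3 of the same group was lowest for Ndufs1 at 23.3 CPM (others 26.1 to 26.6), and its summed erythroid markers reached 130.3 CPM against 1.38 to 2.57 CPM in the other 3. In BM neutrophils, mouse 4 was highest for Cox7a1 at 2.49 CPM (others 1.68 to 1.71), mouse 3 lowest for Ndufs7 at 15.6 CPM (others 18.1 to 18.3), and mouse 1 lowest for the muscle and fat markers at 4.52 CPM (others 5.34 to 5.42). What set these libraries apart was not tested.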

How the results depend on the processing

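Of 1221 values recomputed under the alternatives, 1176 kept their call, or their count within 1.5 times. A count that goes from 30 to 20 is still kept by this rule, and counts between the genotypes, mostly 0, are included. Among 900 values of single genes, 12 lost and 3 gained a call and 19 changed sign, the latter all for mt- genes that were not called in that comparison. The cause of these changes was not tested where none is given.

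For PyMT TANs against BM neutrophils, library totals without TMM factors gave 16 nuclear genes higher and 14 lower, and the libraries with lower epithelial markers 3 mt- genes higher and 1 lower. With GC and length adjusted, 7 nuclear genes were called higher and 20 lower, at a median of -0.21 over the nuclear genes. Leaving out 1 library gave 5 to 8 nuclear genes higher, 26 to 32 lower, 5 mt- genes higher and 0 to 1 lower, the 1 being mt-Nd4 without PyMT mouse 4. For PyMT-Cxcr2-/- TANs against BM neutrophils, nuclear genes called higher were 5 with 12 libraries in one fit and 5 with the lower epithelial markers, where 1 mt- gene was called lower. Leaving out 1 library gave 6 to 8 higher and 30 to 37 lower. With GC and length adjusted, 7 nuclear genes were called higher and 29 lower, at a median of -0.37. Between the genotypes, library totals gave 1 call, 1 nuclear gene lower. With no filter on low counts mt-Cytb missed the threshold in PyMT TANs (adjusted p = 0.086), and with GC and length adjusted so did mt-Nd6 in PyMT-Cxcr2-/- TANs (adjusted p = 0.055).

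Signs changed as follows. Against BM neutrophils, mt-Nd2 was at -0.50 with the lower epithelial markers and ranged from -0.31 to 0.33 without 1 library in PyMT TANs, and it was at 0.11 with library totals and ranged from -0.29 to 0.072 in PyMT-Cxcr2-/- TANs. mt-Nd4 was at 0.17 with library totals in PyMT TANs. Between the genotypes, the lower epithelial markers gave 0.48 for mt-Co1, 0.37 for mt-Cytb, 0.12 for mt-Nd1, 0.0083 for mt-Nd4 and 0.042 for mt-Nd5. Leaving out 1 library gave -0.42 to 0.22 for mt-Co1, -0.53 to 0.041 for mt-Cytb, -0.46 to 0.11 for mt-Nd1, -0.51 to 0.11 for mt-Nd2 and -0.42 to 0.23 for mt-Nd4, with the highest values without PyMT mouse 4.

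The titles give replicate numbers but do not say whether equal numbers pair the mice or share a batch. With 4 libraries a group, the correlations that follow do not decide it. Deviations of libraries with the same number correlated at -0.12 to 0.04 for PyMT TANs and BM neutrophils, 0.03 to 0.13 for PyMT-Cxcr2-/- TANs and BM neutrophils and -0.27 to -0.12 for the TAN genotypes, and 0, 2 and 0 libraries correlated best with their own number. The replicate block gave 6 nuclear genes higher and 29 lower in PyMT TANs, 7 and 33 in PyMT-Cxcr2-/- TANs, 5 mt- genes higher in both, and no call between the genotypes, where mt-Co1 was at 0.0081. The replicate block with GC and length adjusted gave 19 nuclear genes lower in PyMT TANs and 0.15 for mt-Co1 between the genotypes. With 4 mice a group, the 95% intervals of the mt- genes between the genotypes had a median half-width of 0.90 (log2), which limits the differences that could be detected.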

Other observations

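Nuclear regulators that act on respiratory genes were not uniform. In PyMT TANs 4 higher and 2 lower of 9 were called, and 5 higher and 1 lower of 10 in PyMT-Cxcr2-/- TANs, at a background of 30.1% higher and 23.2% lower, and 34.4% and 25.1%. The coactivators Pprc1 and Ppargc1b rose in both. Pprc1 was at 1.44 ± 0.379 CPM in BM neutrophils and 23.3 ± 7.42 and 15.8 ± 2.86 CPM (mean ± SD, n = 4) in the TANs of PyMT and PyMT-Cxcr2-/- mice, with log2 fold changes of 4.10 and 3.58. Ppargc1b was low, at 0.0744 ± 0.0335, 1.38 ± 0.591 and 1.74 ± 0.755 CPM. Myc rose by 3.46 and 3.60 on the log2 scale, whereas Esrra, the estrogen-related receptor that binds many respiratory promoters, fell from 66.1 ± 6.41 CPM to 29.1 ± 9.15 and 35.7 ± 5.38 CPM, with log2 fold changes of -1.11 and -0.77.

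Citric acid cycle genes gave 3 higher and 2 lower of 13 in PyMT TANs and 3 higher and 1 lower of 13 in PyMT-Cxcr2-/- TANs. Idh3a (3.68 and 3.40) and fumarase, Fh1 (2.75 and 2.45), rose, while Mdh2 fell from 196 ± 32.4 CPM to 80.5 ± 13.3 and 86 ± 10.2 CPM. Carriers, pores and import genes gave 11 higher and 2 lower of 17 and 8 higher and 1 lower of 17. The adenine nucleotide carrier Slc25a4 was at 0.633 ± 0.0878 CPM in BM neutrophils and 11.1 ± 4.9 and 12 ± 2.88 CPM in TANs, and the mitochondrial chaperone Hspa9 at 8.77 ± 1.96, 70 ± 5.83 and 47.4 ± 12.1 CPM. Tomm22, a receptor of the import pore, fell (-0.95 and -0.97). Between the TAN genotypes no gene of these 3 lists was called by edgeR, with 1 to 2 genes a list at an unadjusted p under 0.05 and a lowest adjusted p of 0.12. The macrophage markers were higher in TANs, at 2137 to 4983 and 2323 to 4776 CPM against 255 to 357 CPM in BM neutrophils. Their part in these differences was not tested.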
